A study of Mus musculus with 24 samples.

Results

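A set of 32 interferon response genes was followed in mouse liver after delivery of adeno-associated virus (AAV) vectors. They were taken by name as a fixed list of 32 symbols, and the rule used no measured value. The list was, however, chosen with earlier results of these data known. All were found among the 20879 coding features of the 75794 features read. The table writes symbols in capitals (ZBP1, IGTP, ISG15, STAT2 and so on), printed here in mouse style. All 32 reached 0.1 TPM (a length-normalised abundance, scaled to the same total in every group) in at least 1 group of every comparison. The livers came from Ghr fl/fl mice on C57BL/6, labelled male and fed chow, in 4 groups of 6 animals. They received vectors by tail vein at 10 to 12 weeks of age and were sampled 7 days later. A treatment note names both sexes. Every vector was AAV8 under the promoter of thyroxine-binding globulin, a hepatocyte gene, so transgenes were directed to hepatocytes, and every animal received 3.5 (in units of 1e+11 genome copies) in total. Control mice received Null vector only, at 3.5. The aHepGHRkd mice received Cre recombinase at 1.5, which removes the floxed growth hormone receptor gene (Ghr) from hepatocytes, and Null vector at 2.0. The aHepGHRkd_rIGF1 mice received Cre at 1.5 and rat IGF1 at 2.0, which left no Null vector. The aHepGHRkd_STAT5bCA mice received Cre at 1.5, a constitutively active mouse STAT5b at 0.75 and Null vector at 1.25. All 4 groups therefore carried vector, and liver without vector was not analysed here.

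The authors' deposited table gives 1 TPM value per group, and for each of 3 comparisons a ratio and a p computed with edgeR across the animals. No value per animal was used, so no SD, interval or further test can be given, and the depth per library is unknown. Levels are listed throughout in one order: Control, aHepGHRkd, aHepGHRkd_rIGF1, then aHepGHRkd_STAT5bCA. The p was read as adjusted by the Benjamini-Hochberg method, and a gene was called higher or lower when it was under 0.05. Both added-vector groups were compared with the same aHepGHRkd animals, which also entered the comparison with Control. Ghr stood at 180, 55.1, 58.4 and 49.4 TPM, lower in every group given Cre. Stat5b stood at 8.44, 10.6, 12.1 and 30.0 TPM, highest where its active form was supplied. The mouse Igf1 feature, a liver target of growth hormone, stood at 143, 26.2, 114 and 96.4 TPM. It fell after Ghr loss (ratio 0.186, the authors' deposited table, edgeR adjusted p = 0.01003). Its ratios in the other comparisons were not called. Whether reads of the rat IGF1 vector were counted in this feature in aHepGHRkd_rIGF1 was not tested. The labels give hepatocytes as the cell type and liver as the tissue. Albumin (Alb) stood between 66647 and 86393 TPM, and genes of other liver cells were also present, such as the Kupffer cell receptor Clec4f at 20.9, 24.5, 26.6 and 25.4 TPM, so the values are those of whole liver.

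Type I interferons (alpha and beta) bind the receptor Ifnar1 and Ifnar2 and activate the kinases Jak1 and Tyk2, which phosphorylate transcription factors of the STAT family. Stat2 and Irf9 take part in the complex that binds the interferon-stimulated response element, while interferon gamma acts at the gamma-activated sequence. The genes so induced encode RNA sensors, enzymes that degrade or bind viral RNA, ubiquitin-like modifiers and GTPases that attack pathogens. Most tissues express them at a basal level without infection. STAT5b, which growth hormone activates in hepatocytes, is of the same protein family and recognises sequences of the gamma-activated type.

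Promoter sequence is shown for 5 genes to place both elements beside the values that follow. The first is Igtp, which was called in a comparison. Isg15 and Ifi44, with rIGF1, had the ratios farthest from 1 on the log2 scale among the members not called, and Irgm1 and Bst2 were added after their values were seen, as a near relative of Igtp and as the most abundant member. Each window holds the 250 bases before the annotated start, in RefSeq annotation on GRCm38.p6, read 5′ to 3′ on the gene's strand. Capitals mark every match, on either strand, to the core of the interferon-stimulated response element (GAAANNGAAA) or to the consensus of the gamma-activated sequence (TTCNNNGAA). The windows are chr11:58199306-58199555 on the plus strand for Igtp and, on the minus strand, chr11:48871421-48871670 for Irgm1, chr8:71537473-71537722 for Bst2, chr4:156200819-156201068 for Isg15 and chr3:151749911-151750160 for Ifi44.
Igtp: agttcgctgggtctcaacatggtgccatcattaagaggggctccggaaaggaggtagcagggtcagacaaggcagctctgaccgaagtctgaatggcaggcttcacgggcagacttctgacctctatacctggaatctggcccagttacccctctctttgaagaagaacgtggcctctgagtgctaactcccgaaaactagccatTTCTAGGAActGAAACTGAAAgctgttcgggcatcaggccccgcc
Irgm1: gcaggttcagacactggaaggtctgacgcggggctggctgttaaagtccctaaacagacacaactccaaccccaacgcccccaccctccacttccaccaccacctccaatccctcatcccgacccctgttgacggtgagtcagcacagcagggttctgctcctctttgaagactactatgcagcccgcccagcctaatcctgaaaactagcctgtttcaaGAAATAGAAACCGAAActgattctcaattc
Bst2: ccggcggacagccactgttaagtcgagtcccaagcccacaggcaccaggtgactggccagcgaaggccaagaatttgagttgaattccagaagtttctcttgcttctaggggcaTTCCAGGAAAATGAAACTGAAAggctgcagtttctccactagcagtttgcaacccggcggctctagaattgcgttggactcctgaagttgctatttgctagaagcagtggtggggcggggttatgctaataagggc
Isg15: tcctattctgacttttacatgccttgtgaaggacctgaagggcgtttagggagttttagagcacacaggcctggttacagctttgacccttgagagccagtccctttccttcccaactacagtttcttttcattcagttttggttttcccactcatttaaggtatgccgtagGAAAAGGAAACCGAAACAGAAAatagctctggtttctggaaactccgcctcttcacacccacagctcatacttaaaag
Ifi44: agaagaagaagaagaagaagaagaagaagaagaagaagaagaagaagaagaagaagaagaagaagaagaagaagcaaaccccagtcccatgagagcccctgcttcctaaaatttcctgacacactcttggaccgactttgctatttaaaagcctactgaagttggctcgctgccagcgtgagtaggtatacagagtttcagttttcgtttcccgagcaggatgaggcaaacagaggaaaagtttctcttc
The Igtp window holds TTCNNNGAA from base -45 and, after a gap, GAAANNGAAA from base -34, counted back from the start. In Bst2 TTCNNNGAA begins at -136 and overlaps the first of a pair of overlapping GAAANNGAAA matches at -130 and -124. Irgm1 holds overlapping GAAANNGAAA matches at -30 and -24, and Isg15 holds 3 that overlap, at -78, -72 and -66. Neither run of letters was found in the Ifi44 window.

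Promoter windows were matched for 24 of the 32 genes, and these genes have 28 windows. GAAANNGAAA was found in 12 of the 28 windows (42.9%), each of a different gene, and in 978 of all 32851 promoter windows (2.98%). The genes were Gbp2, Gbp3, Isg15, Oas1a, Oas3, Bst2, Stat2, Irgm1, Igtp, Rsad2, Ifit1 and Ifit3. TTCNNNGAA was found in 6 of the 28 windows (21.4%) and in 2306 of all windows (7.02%), those of Oas1a, Bst2, Irf1, Igtp, Eif2ak2 and Ifit2. Both were found in 3 windows (10.7%), of Oas1a, Bst2 and Igtp, against 0.332% of all windows. No window was matched for Zbp1, Oas2, Mx1, Mx2, Usp18, Parp14, Rtp4 and Dhx58. Their promoters were therefore not scanned, that of the called gene Zbp1 included.

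The interferon response genes were expressed in all 4 groups. In bulk tissue, fewer cells of a type and less RNA per cell cannot be told apart. Their TPM added up to 627, 609, 571 and 714, highest with STAT5bCA. Bst2 (tetherin, which holds budding virus particles at the cell surface) alone made up between 42.0% and 44.7% of that sum, at 280, 256, 252 and 305 TPM. The median gene of the list stood at 7.86, 7.92, 7.08 and 8.38 TPM, beside 6.70, 6.76, 7.09 and 6.54 TPM for all coding features at or above 0.1 TPM. Between 30 and 31 of the 32 reached 1 TPM in a group. The lowest was Oas3, at 0.126, 0.170, 0.177 and 0.226 TPM.

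Between groups the levels lay close together, apart from a few genes. The highest group stood a median of 1.28-fold above the lowest, and 1.27-fold for 14081 coding features. It was under 1.5-fold in 24 of the 32, as it was in 72.4% of those coding features. The 8 genes at or above 1.5-fold were Irf7, Zbp1, Oas3, Ifit1, Isg15, Usp18, Gbp3 and Igtp, and Zbp1 at 4.59-fold was the one above 2-fold. The highest group was aHepGHRkd_STAT5bCA for 15 of the 32, and Control for 7. The lowest was Control or aHepGHRkd_rIGF1 for 13 each. These counts rest on TPM and were not made for coding features, so they cannot be called particular to the list.

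**Figure D1:**
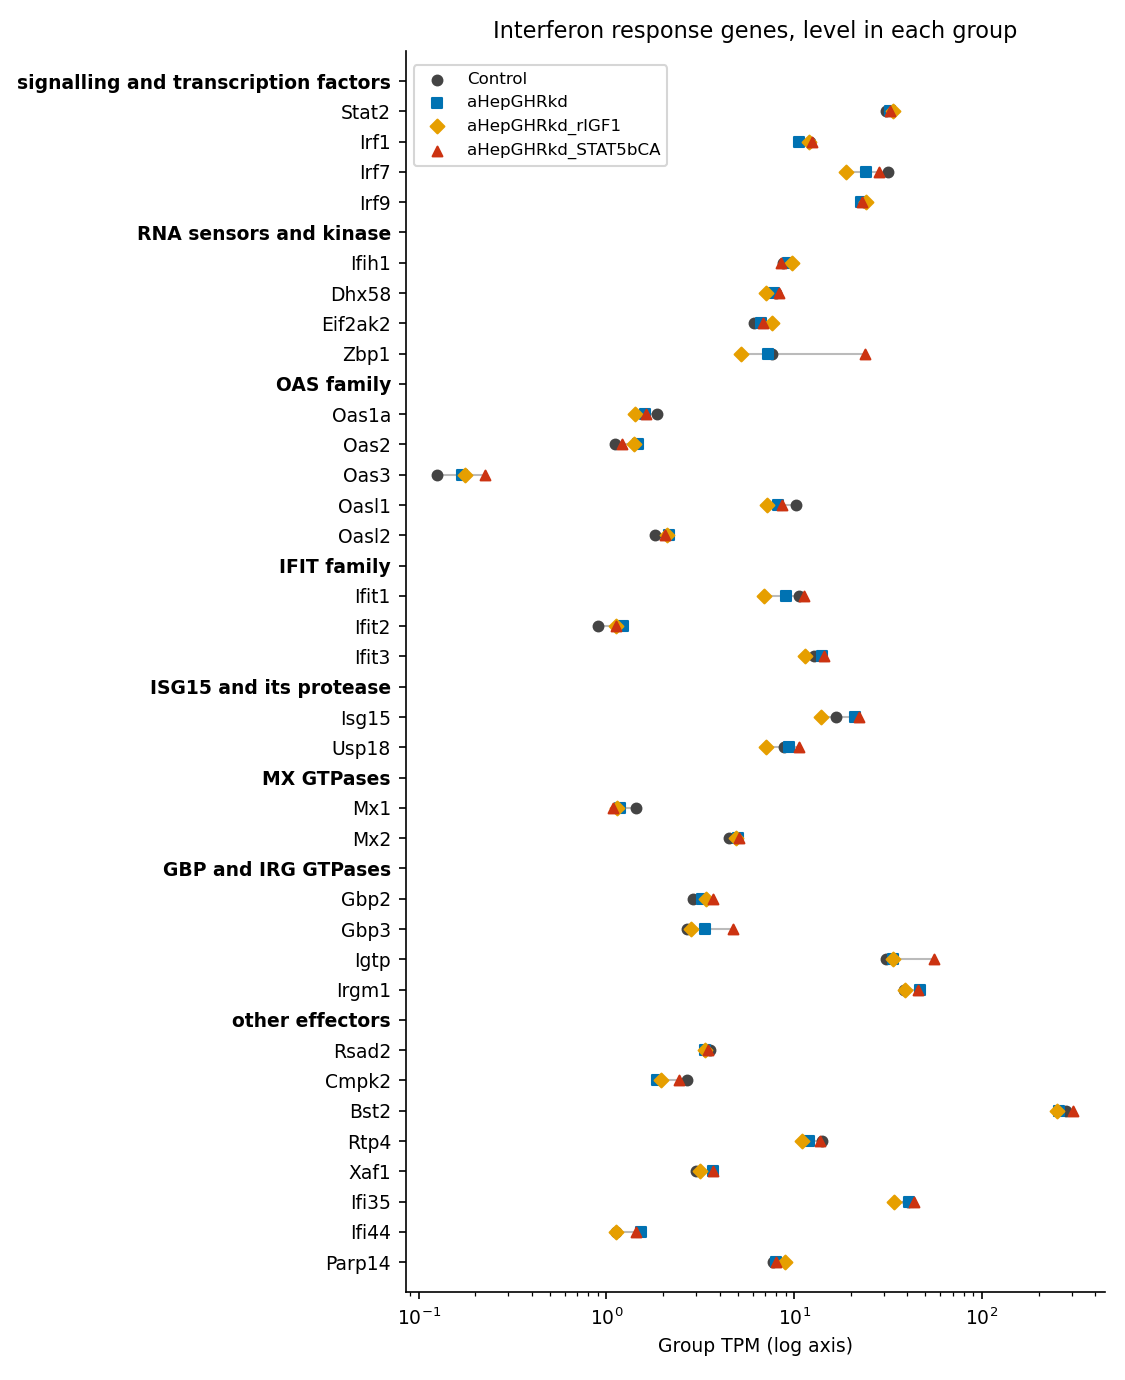
Group TPM (log axis) of the 32 interferon response genes, ordered by role, with 1 symbol per group of 6 animals and a grey line from the lowest to the highest group. Zbp1 at 23.9 TPM and Igtp at 55.6 TPM in aHepGHRkd_STAT5bCA stand to the right of their other 3 groups.

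After hepatocyte Ghr loss none of the 32 genes was called. The authors' deposited table gives 3.53% of coding features as called in aHepGHRkd over Control, 5.36% of those at or above 0.1 TPM. By the edgeR p in the authors' deposited table, the smallest adjusted p among the 32 was 0.141, and at least 2 genes (Irf7 and Cmpk2) had an unadjusted p under 0.05, beside at least 14.6% of coding features. Ratios in the authors' deposited table ran from 0.687 to 1.36, and 19 of the 32 were above 1 (55.8% of coding features), also 19 by the ratio of the group TPM values. The median log2 ratio was 0.07, and 0.03 for coding features. For scale, the authors' deposited table calls 23.4% of the 736 coding features of a similar level that differed by 1.3- to 1.5-fold, and 54.9% of the 395 that differed by 1.5- to 2-fold. A p that misses the threshold does not show that a gene was at the same level in both groups.

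With rat IGF1 none of the 32 genes was called either, in a comparison where the authors' deposited table calls 2 coding features in all (0.00958%) and 0.0144% of those at or above 0.1 TPM. The smallest edgeR adjusted p among the 32 was 0.370 in the authors' deposited table, and at least 4 genes (Irf7, Isg15, Irgm1 and Usp18) had an unadjusted p under 0.05, beside at least 2.27% of coding features. The deposited ratio was above 1 for 3 of the 32 (49.1% of coding features), but the ratio of the group TPM values was above 1 for 10 (71.1% of coding features), so the direction of some depends on the scaling. The coding features themselves differ between the scalings by 0.10 on the log2 scale, with medians of -0.00 and 0.10. The median of the 32 was -0.18 in the authors' deposited table and -0.08 as TPM ratios, below the coding median on either scale. Of the 32, 6 lay below the 5th percentile of coding features by the ratio in the authors' deposited table, and they were Isg15, Ifi44, Zbp1, Usp18, Ifit1 and Irf7. In this comparison the authors' deposited table calls 0 of the 153 coding features of a similar level that differed by 1.5- to 2-fold and 0 of the 34 that differed by 2- to 4-fold.

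With active STAT5b 2 of the 32 genes rose, Zbp1 and Igtp, and none fell. These are 6.25% of the list, beside 2.18% of coding features in either direction and 1.77% called higher in the authors' deposited table (3.27% and 2.66% of those at or above 0.1 TPM). An unadjusted edgeR p under 0.05, from the authors' deposited table, was likewise reached by at least 2 of the 32, the same genes, and by at least 9.30% of coding features. Ratios ran from 0.857 to 3.36 in the authors' deposited table, and 26 of the 32 were above 1 (48.9% of coding features), 24 by the ratio of the group TPM values. The median log2 ratio was 0.09 in the authors' deposited table, and -0.01 for coding features. Within 1.3-fold either way lay 27 of the 32 and 82.8% of coding features. Of coding features of a similar level the authors' deposited table here calls 11.6% of the 502 that differed by 1.3- to 1.5-fold and 43.7% of the 270 that differed by 1.5- to 2-fold.

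**Figure D2:**
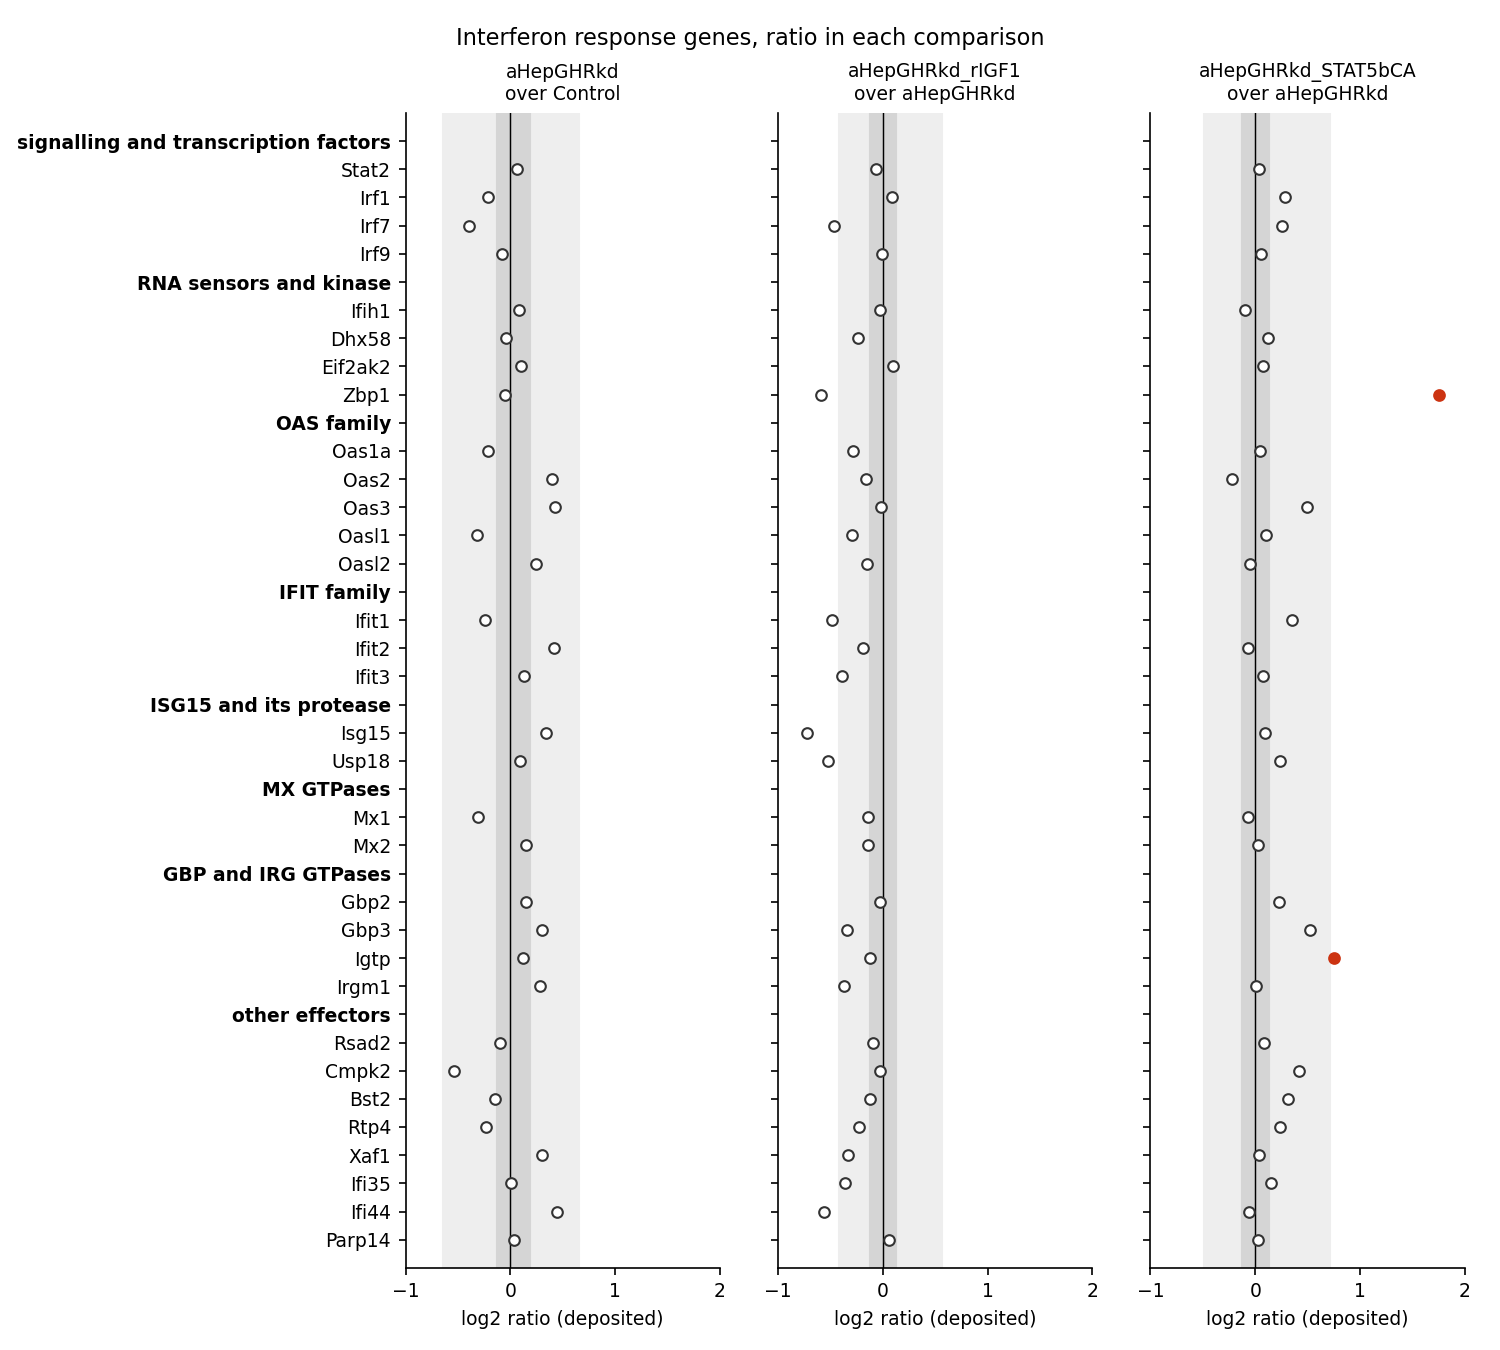
Deposited log2 ratio of each interferon response gene in the 3 comparisons, called genes filled, with the middle 50% (dark band) and middle 90% (light band) of coding features at or above 0.1 TPM. Zbp1 at 1.75 and Igtp at 0.76 with STAT5bCA are the filled points and lie to the right of the light band.

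Zbp1 encodes a sensor of Z-form nucleic acids that can start necroptosis through Ripk3. It stood at 7.58, 7.26, 5.20 and 23.9 TPM. The STAT5bCA group stood apart from the other 3, which lay within a few TPM of each other. With STAT5bCA it rose 3.36-fold (the authors' deposited table, edgeR adjusted p = 4.3e-20). The ratios of 0.963 for aHepGHRkd over Control and 0.667 with rIGF1 were not called in the authors' deposited table (edgeR adjusted p = 1 for each). Its TPM in aHepGHRkd_STAT5bCA was 3.15 times that of Control, a pair of groups for which no test was used here. Among the 370 coding features called higher with STAT5bCA in the authors' deposited table, Zbp1 held rank 53 by p and rank 139 by ratio. The gene lies at chr2:173032113-173044423 on mm9, on the minus strand, with 9 exons, and overlaps no other feature of the table.

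Igtp encodes an immunity-related GTPase (also named Irgm3) that acts at vacuoles holding intracellular pathogens. Its level was 30.8, 33.6, 33.5 and 55.6 TPM. Again the STAT5bCA group alone stood apart. Igtp rose 1.69-fold with STAT5bCA (the authors' deposited table, edgeR adjusted p = 0.00381), and its level there was 1.81 times that of Control by TPM. The other ratios in the authors' deposited table were 1.09 and 0.922, neither called. It held rank 267 by p and rank 270 by ratio among the same 370 features. It lies at chr11:58013058-58021094 on mm9, on the plus strand, with 3 exons. The noncoding feature it overlaps stood between 0.212 and 0.307 TPM.

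**Figure D3:**
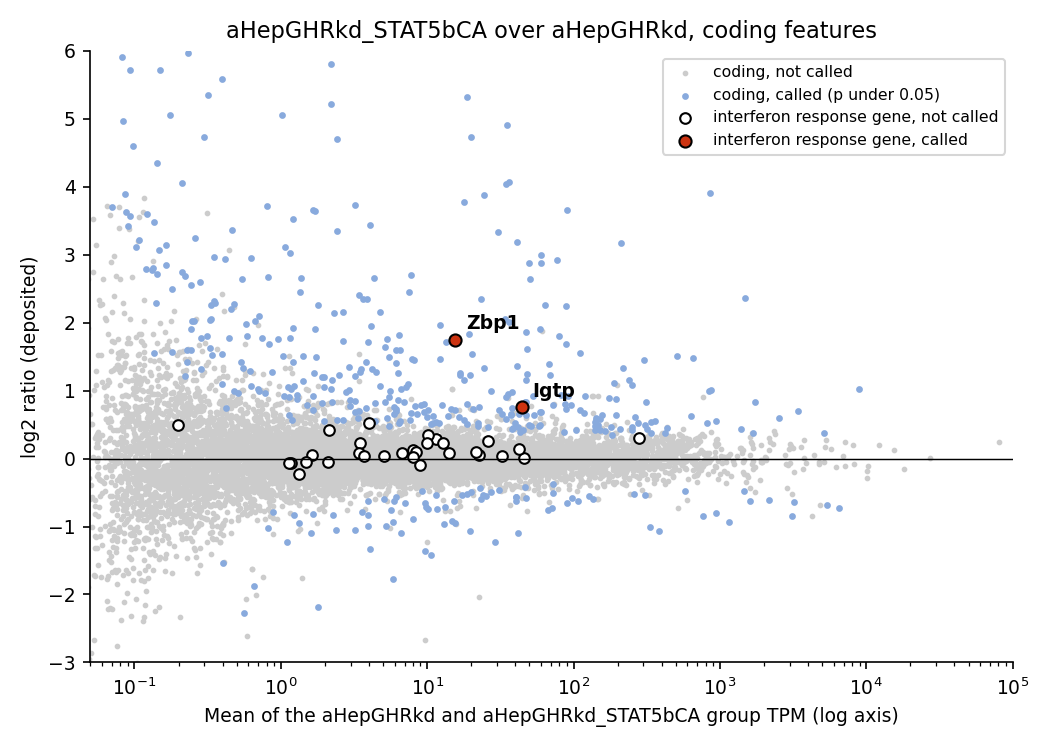
Deposited log2 ratio of aHepGHRkd_STAT5bCA over aHepGHRkd against the mean of both group TPM values (log axis) for coding features, with called features in blue and the 32 interferon response genes as ringed points. Zbp1 and Igtp are the filled points, at log2 ratios of 1.75 and 0.76, and 141 of the 14081 features lie outside the axes.

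The other 3 listed GTPases of the GBP and IRG type, which interferon gamma induces strongly, had ratios above 1 with STAT5bCA without being called. Gbp3 stood at 2.70, 3.34, 2.82 and 4.70 TPM. Its ratio with STAT5bCA was 1.44 (the authors' deposited table, edgeR adjusted p = 0.847). Gbp2 stood at 2.90, 3.23, 3.38 and 3.69 TPM, highest with STAT5bCA as well. Irgm1, a regulator of the other IRG GTPases, stood at 38.2, 46.5, 38.8 and 45.8 TPM. Here the aHepGHRkd group was about as high as the STAT5bCA group, and the ratio between them was 1.01 in the authors' deposited table. In the authors' deposited table all 4 of these genes had a ratio above 1 in aHepGHRkd over Control and none of the 4 had one with rIGF1, although by TPM 1 of the 4 did with rIGF1 and 3 of the 4 did with STAT5bCA.

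Among the transcription factors, Stat2 stood at 30.9, 32.4, 33.4 and 32.5 TPM and its partner Irf9 at 23.6, 22.6, 24.1 and 22.9 TPM. Both were nearly level over the groups. The Stat2 feature overlaps Apof, a liver apolipoprotein gene on the same strand, which stood between 437 and 548 TPM. Irf1, a factor induced by interferon gamma, stood at 12.1, 10.5, 12.0 and 12.4 TPM. Irf7, which drives transcription of interferon alpha genes, stood at 31.6, 24.2, 18.8 and 28.1 TPM, highest in Control and lowest with rIGF1. Its ratios in the authors' deposited table were 0.759 for aHepGHRkd over Control (edgeR adjusted p = 0.141), 0.725 with rIGF1 (p = 0.391) and 1.20 with STAT5bCA (p = 1).

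The cytosolic RNA sensors other than Zbp1 differed little between groups. Ifih1 (MDA5, a sensor of long double-stranded RNA) stood at 8.67, 9.30, 9.76 and 8.47 TPM, and Dhx58 (LGP2, which modulates it) at 7.98, 7.81, 7.12 and 8.28 TPM. Eif2ak2 (PKR, the kinase that halts translation on double-stranded RNA) stood at 6.09, 6.64, 7.59 and 6.79 TPM. In the authors' deposited table every ratio of these 3 genes had an edgeR adjusted p of 1.

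The OAS enzymes make the messenger that activates RNase L, and the most abundant of the 5 family genes was Oasl1, a related protein that represses translation of Irf7. Oasl1 stood at 10.2, 8.21, 7.20 and 8.60 TPM, highest in Control. Oas1a stood at 1.85, 1.61, 1.41 and 1.63 TPM, Oas2 at 1.11, 1.47, 1.41 and 1.21 TPM and Oasl2 at 1.82, 2.16, 2.10 and 2.05 TPM. The genes of the family had no common order of groups. With rIGF1 none of the 5 had a ratio above 1 in the authors' deposited table, and 1 of the 5 did by TPM.

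IFIT proteins bind viral RNA, and their genes lie together on chromosome 19, between 34625184 and 34724499 on mm9. Ifit1 stood at 10.6, 9.01, 6.90 and 11.3 TPM and Ifit3 at 12.7, 14.0, 11.4 and 14.4 TPM, each lowest with rIGF1 and highest with STAT5bCA. Ifit2 stood at 0.900, 1.22, 1.13 and 1.12 TPM, lowest in Control. The authors' deposited table gives Ifit1 ratios of 0.843, 0.713 and 1.27, none of them called. Ifit3 and the nearby near-copy Ifit3b share sequence, so how reads were divided between them is uncertain. The same holds for Oas1a and Oas1g and within the Gbp genes.

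Isg15, a ubiquitin-like protein joined to other proteins after interferon, stood at 16.8, 21.2, 13.8 and 22.2 TPM. Usp18, the protease that removes it and that also dampens the type I receptor, stood at 8.80, 9.43, 7.04 and 10.6 TPM. Both were lowest with rIGF1. The ratio of Isg15 with rIGF1 was 0.606, the lowest of the list in the authors' deposited table, and was not called (edgeR adjusted p = 0.370), nor was 0.697 for Usp18 (p = 0.472). For aHepGHRkd over Control the authors' deposited table gives Isg15 a ratio of 1.26 and for STAT5bCA one of 1.07.

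Mx1 and Mx2, genes of the MX family of dynamin-like GTPases, stood at 1.43, 1.17, 1.13 and 1.09 TPM and at 4.51, 5.00, 4.91 and 5.06 TPM. Rsad2 (viperin, which makes a chain-terminating nucleotide) and Cmpk2 (a mitochondrial nucleotide kinase) are neighbours on chromosome 12. Rsad2 stood at 3.54, 3.35, 3.37 and 3.49 TPM and Cmpk2 at 2.69, 1.86, 1.96 and 2.44 TPM. Rsad2 was thus nearly level, whereas Cmpk2 was highest in Control, with a ratio of 0.687 for aHepGHRkd over Control in the authors' deposited table (edgeR adjusted p = 0.550).

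Ifi35, after Bst2 the most abundant of the list in Control, stood at 40.4, 40.7, 34.1 and 43.6 TPM. Its feature overlaps a noncoding feature on the other strand, Gm11626, which stood at 77.1, 70.5, 56.7 and 77.6 TPM. The strand setting is not given, so how reads were divided between them is uncertain. Rtp4, a Golgi chaperone of receptors, stood at 14.0, 12.0, 11.0 and 13.6 TPM. Xaf1, an antagonist of the apoptosis inhibitor XIAP, stood at 3.00, 3.68, 3.15 and 3.71 TPM. Ifi35, Rtp4 and Xaf1 had their lowest values in Control or with rIGF1. Ifi44 stood at 1.12, 1.54, 1.12 and 1.44 TPM, and Parp14, an ADP-ribosyltransferase, at 7.75, 8.04, 8.97 and 7.96 TPM. In the authors' deposited table the ratio of Ifi44 was 1.36 for aHepGHRkd over Control, the highest of the 32, and 0.676 with rIGF1, neither called. Bst2 itself had ratios of 0.904, 0.916 and 1.24 in the authors' deposited table (edgeR adjusted p = 0.940 for the last).

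Upstream of these genes the ligands were near or at 0. Of 17 interferon genes 15 were listed at 0 in all groups, Ifnb1 and Ifna1 among them. Ifng stood at 0.0611, 0.0331, 0.0243 and 0.0854 TPM and Ifnk at 0.389, 0.149, 0.143 and 0.120 TPM, and neither was called in any comparison. The type I receptor subunit Ifnar2 fell after Ghr loss, at 45.2, 35.3, 31.99 and 36.8 TPM, with a ratio of 0.776 (the authors' deposited table, edgeR adjusted p = 0.0298). It was the 1 gene called among 11 receptor and JAK-STAT genes. For this list and those that follow, the shares called of coding features at or above 0.1 TPM serve as scale. They were 5.36% in aHepGHRkd over Control, 0.0144% with rIGF1 and 3.27% with STAT5bCA. The other subunit, Ifnar1, stood at 10.7, 8.97, 8.57 and 9.52 TPM, and its ratio of 0.830 was not called (the authors' deposited table, edgeR adjusted p = 0.211).

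Of 21 genes listed for innate sensing, mainly of nucleic acids, 1 fell after Ghr loss and 1 rose with STAT5bCA. Neither of the called genes encodes a receptor of nucleic acids. In the same comparisons 5.36% and 3.27% of coding features at or above 0.1 TPM were called. Irf5, a factor downstream of Toll-like receptors, stood at 13.8, 10.6, 11.4 and 10.6 TPM (ratio 0.762 for aHepGHRkd over Control, the authors' deposited table, edgeR adjusted p = 0.0178). Tlr2, a receptor of bacterial lipoproteins, stood at 1.98, 1.17, 1.14 and 2.17 TPM (ratio 1.88 with STAT5bCA, the authors' deposited table, edgeR adjusted p = 0.00716). Tlr2 was lower in both groups that received Cre without active STAT5b. Its ratio of 0.586 for aHepGHRkd over Control was not called (the authors' deposited table, edgeR adjusted p = 0.239).

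Of these pathway lists, the negative regulators held the largest called ratios. Of 11 genes, Cish and Socs2, inhibitors that growth hormone induces through STAT5, fell after Ghr loss and rose with STAT5bCA. Socs1, which blocks the JAK kinases of the interferon receptors, rose with STAT5bCA as well. Socs1 stood at 0.602, 0.430, 0.496 and 2.26 TPM, with a ratio of 5.46 (the authors' deposited table, edgeR adjusted p = 8.44e-07). Socs2 rose 26.7-fold with STAT5bCA (the authors' deposited table, edgeR adjusted p = 1.64e-89) and Cish 13.2-fold (1.56e-33). With rIGF1 none of the 11 was called.

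Of 25 targets of interferon gamma, the immunoproteasome subunit gene Psmb10 alone was called, at 52.5, 43.9, 42.0 and 59.2 TPM, with a ratio of 1.39 for STAT5bCA (the authors' deposited table, edgeR adjusted p = 0.0458). Among the 23 at or above 0.1 TPM, 19 had a ratio above 1 with STAT5bCA, by either scaling, and with rIGF1 2 had one in the authors' deposited table and 6 by TPM. None of 34 other interferon-stimulated genes was called in any comparison. With rIGF1 9 of those 34 had a ratio above 1 in the authors' deposited table and 18 by TPM. With STAT5bCA 23 of the 34 had one in the authors' deposited table and 16 by TPM. Among coding features the shares with STAT5bCA were 48.9% and 38.6%.

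**Figure D4:**
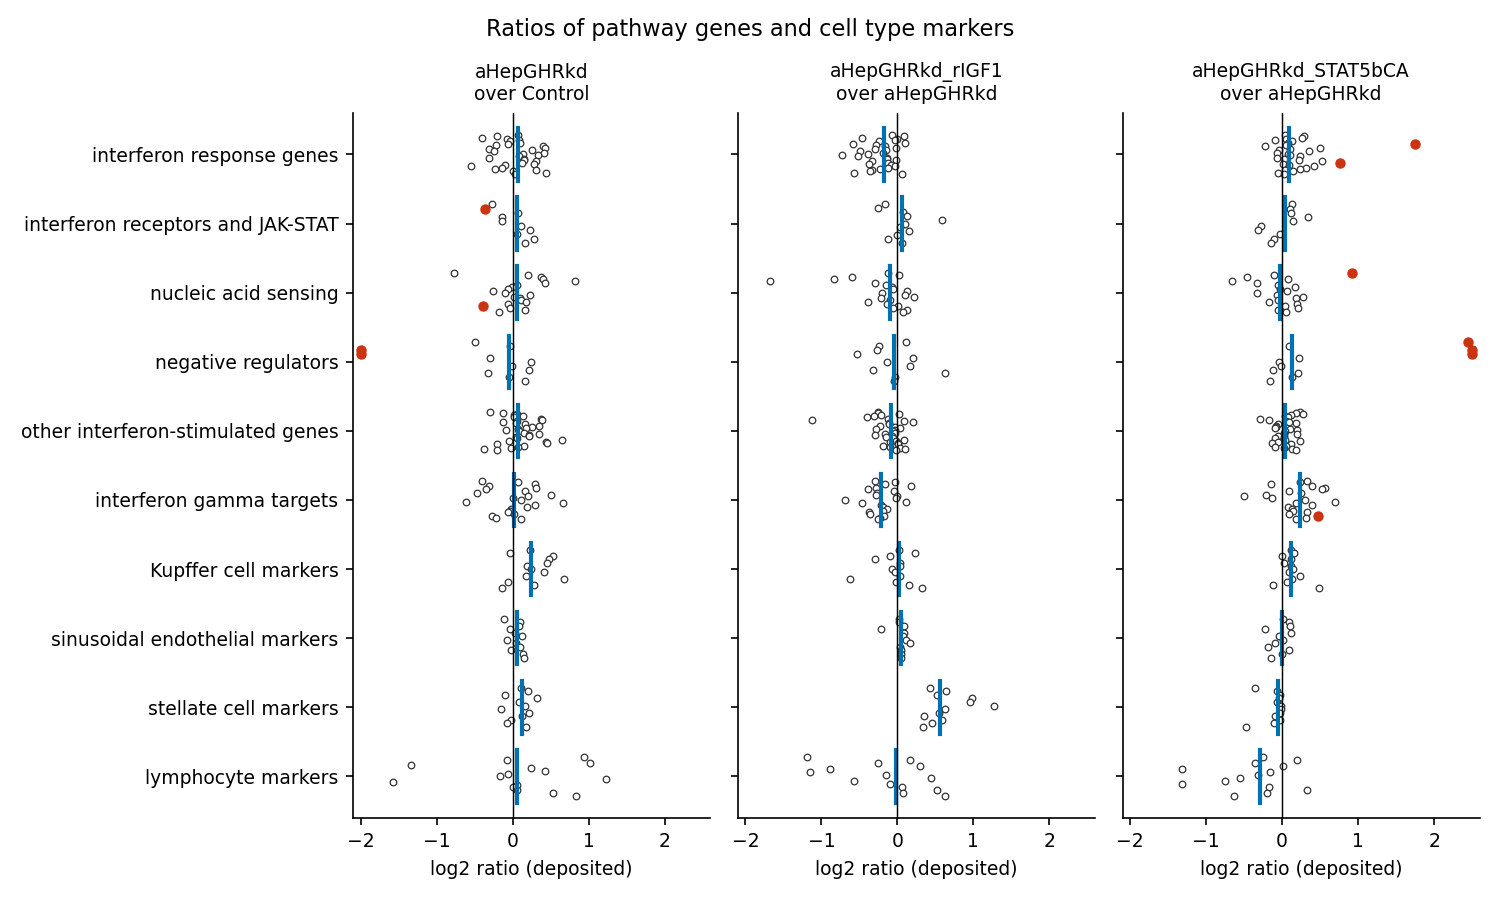
Deposited log2 ratio of the genes at or above 0.1 TPM of the interferon response list, related pathway lists and cell type markers, with called genes filled and a blue bar at each list's median. Points beyond the axis are drawn at its edge, namely Cish and Socs2 in the outer panels, and the 12 stellate cell markers lie to the right of 0 with rIGF1 without any being called.

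Levels of markers of other liver cells differed in some comparisons without being called, and their part in the values above was not tested. The 13 Kupffer cell markers added up to between 139 TPM in Control and 180 in aHepGHRkd_STAT5bCA, and 10 had a ratio above 1 in aHepGHRkd over Control and 12 with STAT5bCA in the authors' deposited table (9 by TPM). The 12 stellate cell markers added up to 180, 177, 268 and 161 TPM. With rIGF1 all 12 had ratios above 1 in the authors' deposited table, from 1.27 to 2.42, and none was called (smallest edgeR adjusted p = 0.517). Lymphocyte markers (15 genes) added up to between 6.06 and 8.23 TPM, those of neutrophils and monocytes (12 genes) to between 14.9 and 18.0 TPM, and sinusoidal endothelial markers (12 genes) to between 116 and 136 TPM. For plasmacytoid dendritic cells, the main source of interferon alpha in many infections, 8 markers added up to between 4.85 and 5.77 TPM. The largest parts were Tcf4 (2.21 to 2.61 TPM), Ptprs (1.06 to 1.67 TPM) and Ccdc162 (0.941 to 1.11 TPM). Siglech, the defining marker of these cells, stood at 0.206, 0.254, 0.232 and 0.190 TPM, and Cd209d was listed at 0 in Control. None of the markers in these 6 lists was called in any comparison. Of 12 hepatocyte genes Ttr rose and Trf fell after Ghr loss, and Trf and Asgr1 rose with STAT5bCA, by the p of the authors' deposited table.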

How the data were processed

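PolyA-selected RNA of snap-frozen liver was sequenced, per the labels' protocols. The submitters' processing notes name STAR, featureCounts and edgeR for the authors' work. Their versions and the strand setting are not given in the sources used here, and TPM values are deposited as 1 value per group for exon-collapsed gene models on mm9, per the file headers. The ratio (a linear fold between groups) and the p-value are the authors' own, from edgeR per the file headers. The header states no adjustment of the p. It was read as Benjamini-Hochberg adjusted, since 69174, 75054 and 72384 values are exactly 1 in the comparisons of aHepGHRkd with Control, of rIGF1 and of STAT5bCA. Unadjusted counts were recovered from that reading as lower limits. TPM keeps no depth, so precision per sample cannot be given. Groups were taken from the labels. The copy used leaves 4 lines empty, and the aHepGHRkd value was taken from its comparison with Control.

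Coding features were those with an NM accession. Members were counted as called (p under 0.05) in each of 3 comparisons and set beside all coding features, with 0.1 TPM in either group as the filter on low values. "A similar level" above means at least 1 TPM and at most the highest TPM of a member. The members and gene lists were chosen with earlier results of these data known, and the families of Gbp, Ifit, Oas and Irg genes were looked up after the values were seen. All members could be named, those called and the 10 highest in Control with full values, and each called gene of the other lists was named. Promoter sequence was planned for the 4 members with the largest absolute log2 ratio, Zbp1 included. Python 3.11.15, pandas 2.3.3 and numpy 2.4.6 were used, and the counting steps were tested on simulated data. The planned replicate block could not be fitted. Alternatives were other thresholds, filters, pseudocounts and scalings.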

Additional observations from a re-analysis of the deposited data

How the results depend on the processing

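No paired analysis was possible because the table gives 1 value per group, so neither a replicate block nor leaving out a replicate could be run, and 1 animal deciding a value would not be seen. With a fold of at least 2 required, 1 of the 2 genes called with STAT5bCA remained, Zbp1. The median log2 ratio with rIGF1 was -0.18 as deposited and -0.047 as a difference of log2(TPM + 1), which shrinks the ratios of low genes. Without Bst2 the summed TPM was 346, 353, 319 and 409, with the groups listed as above. Control then stood below aHepGHRkd, whereas with Bst2 it stood above (627 against 609). The other 34 values computed under an alternative kept their direction and call. Among them, chosen after seeing the data, the log2 ratio with STAT5bCA under other scalings was 1.59 to 1.72 for Zbp1 and 0.71 to 0.73 for Igtp, against 1.75 and 0.76 as deposited. Depth is unknown. Among coding features of a similar level the smallest fold called was 1.26 for aHepGHRkd over Control and 1.27 with STAT5bCA, and with rIGF1 none was called.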

Other observations

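Among relatives of the listed GTPases, looked up after the values were seen, Gbp11 was highest with STAT5bCA and lowest with rIGF1. Gbp11 (chr5:105752045-105775495 on mm9, minus strand) stood at 7.38, 4.39, 3.16 and 11.9 TPM in the order of groups used above. It rose 2.73-fold with STAT5bCA (the authors' deposited table, edgeR adjusted p = 1.23e-06), the 1 gene called of the 11 Gbp features. That comparison called 3.27% of coding features at or above 0.1 TPM. The other Gbp genes of the same chromosome 5 cluster had STAT5bCA ratios of 1.51 (Gbp10), 1.48 (Gbp6), 1.22 (Gbp8), 1.06 (Gbp9) and 0.907 (Gbp4) in the authors' deposited table, none called (smallest edgeR adjusted p = 0.178, for Gbp6). These genes are close copies of each other, so the division of reads among them is uncertain. Of the IRG GTPases outside the list, Irgm2, which lies beside Igtp on chromosome 11, stood at 22.1, 23.5, 24.6 and 27.3 TPM, with a ratio of 1.18 for STAT5bCA that was not called (the authors' deposited table, edgeR adjusted p = 1).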
